A study of Arabidopsis thaliana with 24 samples.

Results

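Polysome association was measured in Arabidopsis seedlings of the mutant dcp5-1 and of the wild type Col-0, and the value described here is the difference between the 2 genotypes in how association changed under NaCl. Association is the log2 level of a messenger in polysomal RNA minus its log2 level in total RNA of the same condition. The change of association is its value after 15 min in NaCl (T15) minus its value at 0 min (T0). The difference in association is this change in dcp5-1 minus this change in Col-0, so that a positive value means a larger gain, or a smaller loss, of association in dcp5-1. It was taken from all 24 of the 24 libraries of the series. Of 38088 genes in the deposited table, the 20964 genes (55.0%) with at least 1 FPKM in 3 or more libraries were tested. FPKM counts fragments per kilobase of transcript, relative to all fragments of the library.

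All seedlings were 5 days old, grown on agar, rested for 30 min in liquid medium and then moved to the same medium with 150 mM NaCl. The groups were dcp5-1 at T15, dcp5-1 at T0, Col-0 at T15 and Col-0 at T0, each with polysomal RNA from pooled fractions of a 10% to 50% sucrose gradient and with total RNA of the input lysate. That made 8 groups of 3 libraries. No group spent 15 min without NaCl, so that an effect of NaCl cannot be told apart from one of transfer or elapsed time. The labels give no separate cultures for the 3 libraries of a group, and p-values measure the spread between these libraries, which may be technical. The deposited columns marked IP were read as polysomal RNA, and with the opposite reading every sign of association would reverse. FPKM is relative within a library, so total polysome content per seedling was not measured. In whole seedlings, fewer cells of a type and less RNA per cell cannot be told apart.

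DCP5 encodes a cytoplasmic protein of the LSM14 family that works with the decapping enzyme DCP2 and its activator DCP1. Decapping removes the cap from the start of a messenger and commits it to decay, and the proteins gather in processing bodies with messengers that are not being translated. A messenger that is being translated carries several ribosomes and sediments in the polysome fractions of a sucrose gradient. Hypertonic salt lowers water uptake, and plant cells respond within minutes with changes in translation and in messenger stability.

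In each library, most low values of pseudogenes and of models without annotated untranslated parts fell on steps of 1 fragment. The best-fitting steps implied 14320000 to 18680000 fragments per library, and 19026 to 19579 genes per library reached 1 FPKM. Between libraries of 1 group, the coefficient of variation beyond counting error ranged from 1.33% to 11.3%, taken over nuclear genes with many implied fragments. It was 5.25%, 7.52% and 11.3% for the 3 pairs of Col-0 T0 total RNA, and 5.49% and 5.03% for the pairs of Col-0 T15 polysomal RNA that include its first column, against 2.02% for the pair without it. No pair of libraries agreed within counting error, with variances of 1.19 to 14.8 times that of counting. Of the organ markers, 34 of 35 nuclear photosynthesis genes and 9 of 10 root-expressed genes reached the filter.

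Association changed differently in dcp5-1 for 1311 genes, 6.25% of those tested. The difference was higher in 409 genes (1.95%) and lower in 902 genes (4.3%) by limma on log2(FPKM + 1), with adjusted p below 0.05 over all genes tested and 16 residual degrees of freedom. It reached 1.5-fold in 84 of the higher and 552 of the lower genes, and 2-fold in 9 and 108 genes. The median difference over all genes was -0.03 and its median standard error 0.175. Below, a value with ± is a log2 difference with the standard error of this fit over the 24 libraries. Without the first column of Col-0 T0 total RNA the counts were 570 higher and 1533 lower genes, and without the third column of dcp5-1 T15 total RNA they were 263 and 636. With library totals taken over nuclear genes alone (nuclear scaling) the counts were 627 and 612, and the median of all genes moved to 0.07, so that the balance of higher and lower genes depends on the scaling. In values adjusted for length and GC content in each library (length-adjusted values), 140 genes were higher and 548 lower.

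Most called genes had a smaller change of association in dcp5-1 than in Col-0. For the 902 lower genes, the median change was a gain of 0.17 in dcp5-1 and of 0.86 in Col-0. For the 409 higher genes it was 0.02 in dcp5-1 and -0.48 in Col-0. The size of the change was the smaller one in dcp5-1 in 88.4% of the lower and 81.9% of the higher genes. Over all genes tested it was so in 65.0%. The called genes were selected by the difference between the changes in dcp5-1 and Col-0, so shares above 65.0% are partly built in. Their excess is no separate result, whereas the share of 65.0% was counted without that selection. Association as such was called changed in 26.3% of genes in dcp5-1 (12.3% gains, 14% losses) and in 44.3% of genes in Col-0 (22.8% gains, 21.5% losses). With nuclear scaling there were 1703 gains and 4483 losses in dcp5-1 and 2881 gains and 7889 losses in Col-0, against 2575 and 2931 in dcp5-1 and 4786 and 4503 in Col-0 in the values as deposited, so that gain and loss are relative to the scaling. Of the lower genes, 440 gained in Col-0 with no call in dcp5-1, 343 gained in both, 74 lost in dcp5-1 with no call in Col-0, and 17 lost in dcp5-1 and gained in Col-0. Of the higher genes, 246 lost in Col-0 with no call in dcp5-1, 80 lost in both, 52 gained in dcp5-1 with no call in Col-0, and 19 gained in dcp5-1 and lost in Col-0. The changes in both genotypes add up to the difference by construction.

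**Figure D1:**
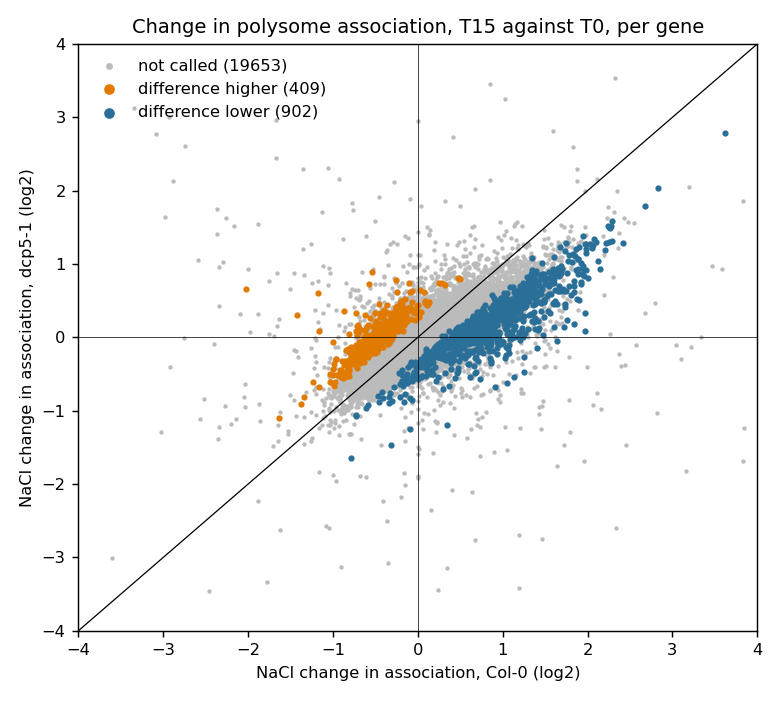
Each point is a gene, with the change of association at T15 against T0 in Col-0 on the x axis and in dcp5-1 on the y axis, both as log2 values. The 409 genes with a higher difference lie above the diagonal and the 902 genes with a lower one below it, and 34 of the 20964 genes lie outside the plotted range.

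By number of calls, the difference lay more in total RNA than in polysomal RNA. In total RNA the NaCl response differed between dcp5-1 and Col-0 in 25.2% of genes (16.9% positive, 8.34% negative), and in polysomal RNA in 10.9% (6.49% positive, 4.45% negative). Among the 902 lower genes, the median NaCl change in total RNA was -0.40 in dcp5-1 and -0.90 in Col-0, and in polysomal RNA it was -0.17 in dcp5-1 and -0.04 in Col-0. Total RNA of these genes thus fell less in dcp5-1, and the difference of responses in total RNA was called positive in 730 of them and negative in 3. In polysomal RNA the difference was called negative in 203 and positive in 49 of them. Among the 409 higher genes, the median change in total RNA was 0.18 in dcp5-1 and 0.48 in Col-0, and 281 genes had a negative and 8 a positive difference of responses. In polysomal RNA, 117 of these genes had a positive difference and 1 a negative one. The fractions enter the difference in association with opposite signs. Genes selected by that difference therefore lean to these signs by construction, and the sign counts of both sets are no separate result. The shares of 25.2% and 10.9% were counted over all genes tested, without that selection. Both rest on 1 estimate of the spread for all groups, while Col-0 T0 total RNA varied by up to 11.3% between libraries beyond counting error. Without the second column of that group, 2938 genes were called positive and 1357 negative in total RNA, and 1725 and 1083 in polysomal RNA. With nuclear scaling, the difference over all genes in total RNA had 1775 positive and 5697 negative calls with a median of -0.17, against 3535 and 1748 calls with a median of 0.02 in the values as deposited, so that signs in 1 fraction are relative to that scaling.

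The lower genes were short and the higher genes long. Among protein-coding genes, the median transcript had 1002 nt in lower genes, 2561 nt in higher genes and 1697 nt in all genes tested. The coding region had a median of 459 nt, 1827 nt and 1083 nt in these sets. Coding regions under 600 nt, a limit chosen after the values had been seen, made up 65.9% of the lower, 2.77% of the higher and 21.0% of all protein-coding genes tested. Lower genes had a median of 3 exons and a GC content of 39.3%, higher genes 7 exons and 42.6%, and all genes 4 exons and 41.3%. The untranslated parts differed less, with a median leader of 175 nt, 258 nt and 199 nt and a median trailer of 280 nt, 290 nt and 273 nt in lower, higher and all genes. Across the 19445 protein-coding genes of the nucleus with transcripts from 300 nt on, Spearman's rho of the difference with transcript length was 0.43, with coding length 0.45, with the leader 0.10, with the trailer 0.02 and with GC content 0.26. These values describe genes that share all 24 libraries, and genes are not independent replicates.

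Both genotypes showed the length pattern, and it was shallower in dcp5-1. In transcripts of 300 to 749 nt the median change of association was 0.28 in dcp5-1 and 0.66 in Col-0. In transcripts of 2500 nt or more it was -0.13 in dcp5-1 and -0.26 in Col-0. The median difference went with it over the 5 classes of 300 to 749, 750 to 1249, 1250 to 1749, 1750 to 2499 and 2500 or more nt, at -0.43, -0.20, -0.05, 0.02 and 0.13 by increasing length. The difference was called lower in 16.2%, 9.66%, 3.21%, 1.81% and 0.746% of the genes in these classes, and higher in 0.182%, 0.458%, 1.65%, 1.62% and 5.43%. Spearman's rho with length was -0.42 for the change of association in dcp5-1 and -0.59 in Col-0, again as a description.

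**Figure D2:**
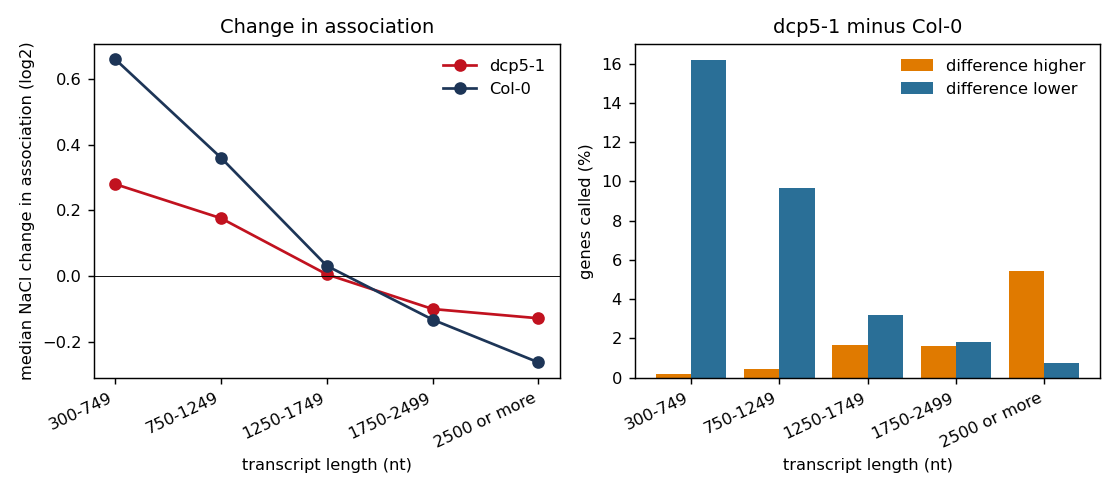
Left, median log2 change of association at T15 against T0 for 5 classes of transcript length in dcp5-1 and in Col-0. Right, percent of the genes of each class with a higher or lower difference, where lower calls make up 16.2% of the shortest class and higher calls 5.43% of the longest.

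The length pattern was also seen in single libraries. For each gene, the mean of log2(FPKM + 1) over the 24 libraries was first taken off. The slope of the remainder on log2 transcript length describes how far a library favours long transcripts relative to that mean. In total RNA it ran from -0.085 to -0.037 per doubling of length in dcp5-1 at T15 and from -0.354 to -0.327 in dcp5-1 at T0. The same fraction of Col-0 ran from 0.123 to 0.154 at T15 and from -0.383 to -0.285 at T0. Total RNA at T15 therefore had libraries of the 2 genotypes that did not overlap, while at T0 they did. Polysomal RNA ran from 0.173 to 0.177 at T15 and from 0.055 to 0.096 at T0 in dcp5-1, and from 0.183 to 0.255 at T15 and from 0.118 to 0.127 at T0 in Col-0. Polysomal libraries of the 2 genotypes thus did not overlap at T15 or at T0. The fragment length that best explained the low values was 245 to 260 nt in total RNA and 260 to 275 nt in polysomal RNA, and how far RNA integrity or library preparation takes part in these slopes was not tested.

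**Figure D3:**
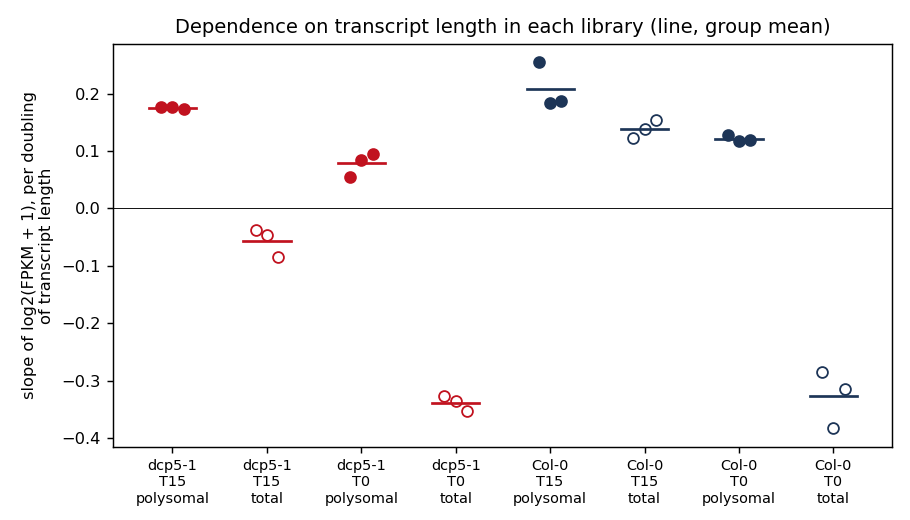
Slope of log2(FPKM + 1) per doubling of transcript length for each of the 24 libraries, with filled points for polysomal and open points for total RNA. The mean of each gene over all libraries was taken off first, so that slopes are relative to that mean. Total RNA at T15 lies between -0.085 and -0.037 in dcp5-1 and between 0.123 and 0.154 in Col-0, while total RNA of both genotypes lies below -0.28 at T0.

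Coding sequences are shown for the 3 shortest coding regions among the 14 named genes with the lowest differences, since short coding regions are what these genes share. They come from RefSeq on TAIR10.1, introns left out, and capitals mark the start and stop codons.
MT1C, plus strand, chr1:2341603-2341865: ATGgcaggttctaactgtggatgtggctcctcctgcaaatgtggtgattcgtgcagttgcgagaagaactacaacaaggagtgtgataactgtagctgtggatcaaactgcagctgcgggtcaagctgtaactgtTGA
AGP14, plus strand, chr5:22893243-22893425: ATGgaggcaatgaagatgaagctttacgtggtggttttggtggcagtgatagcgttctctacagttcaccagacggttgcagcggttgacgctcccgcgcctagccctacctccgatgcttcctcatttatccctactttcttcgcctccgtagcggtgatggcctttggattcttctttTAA
SMAP1, plus strand, chr4:7864462-7864650: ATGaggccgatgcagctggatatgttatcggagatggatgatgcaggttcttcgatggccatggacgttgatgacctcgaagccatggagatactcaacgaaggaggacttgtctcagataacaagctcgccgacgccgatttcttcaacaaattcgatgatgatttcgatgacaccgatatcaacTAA
They encode 45, 60 and 62 residues. All 14 of these genes had coding regions under 600 nt, from 138 nt to 546 nt, whereas the 14 genes with the highest differences had coding regions from 936 nt to 6627 nt.

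DCP5 itself (AT1G26110, chromosome 1, 9024341 to 9027955 in TAIR10.1) had a higher difference. In dcp5-1, DCP5 had 21.5, 19.7 and 20.6 FPKM in polysomal and 16.7, 16.8 and 17.0 FPKM in total RNA at T15, and 20.4, 21.4 and 20.1 FPKM in polysomal and 12.99, 12.96 and 13.2 FPKM in total RNA at T0. In Col-0, DCP5 had 83.0, 90.8 and 85.8 FPKM in polysomal and 77.1, 76.8 and 77.2 FPKM in total RNA at T15, and 92.3, 91.8 and 90.7 FPKM in polysomal and 48.5, 51.7 and 52.1 FPKM in total RNA at T0. Transcript remained in dcp5-1, below all Col-0 libraries of matching time and fraction. In both genotypes total RNA was higher at T15 than at T0 without overlap, while polysomal libraries of the times overlapped. Association of DCP5 fell by 0.35 in dcp5-1 and by 0.68 in Col-0, and the difference was 0.33 ± 0.08, adjusted p = 0.023. Length-adjusted, it was 0.18 (adjusted p = 0.27) and passed no longer.

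Among the 14 named genes with the highest differences, LOX2 led with 0.87 ± 0.10, adjusted p = 6.2e-05. LOX2 (AT3G45140, chromosome 3, 16525245 to 16529352 in TAIR10.1) encodes a plastid lipoxygenase of jasmonate synthesis. In dcp5-1, LOX2 had 61.4, 61.1 and 59.7 FPKM in polysomal and 13.5, 14.7 and 12.4 FPKM in total RNA at T15, and 17.5, 17.0 and 18.7 FPKM in polysomal and 5.83, 5.68 and 5.73 FPKM in total RNA at T0. In Col-0, LOX2 had 52.0, 53.8 and 54.1 FPKM in polysomal and 22.1, 22.8 and 23.3 FPKM in total RNA at T15, and 37.7, 37.1 and 37.6 FPKM in polysomal and 13.5, 13.04 and 12.9 FPKM in total RNA at T0. All 4 pairs of groups were higher at T15 without overlap, and the increase in polysomal RNA of dcp5-1 was the widest of them. Association rose by 0.62 in dcp5-1 and fell by 0.25 in Col-0. The difference of NaCl responses was 1.23 in polysomal RNA and 0.36 in total RNA. LOX2 remained called in all 24 fits without 1 library and in length-adjusted values.

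CTL2 (AT3G16920, chromosome 3, 5776264 to 5778052 in TAIR10.1), a chitinase-like protein of cellulose assembly, had 16.9, 15.7 and 17.36 FPKM in polysomal and 7.84, 9.70 and 9.75 FPKM in total RNA at T15, and 14.9, 14.2 and 15.5 FPKM in polysomal and 10.2, 10.3 and 11.2 FPKM in total RNA at T0 in dcp5-1. In Col-0, CTL2 had 16.1, 17.7 and 18.1 FPKM in polysomal and 9.34, 9.35 and 9.99 FPKM in total RNA at T15, and 17.38, 18.8 and 16.6 FPKM in polysomal and 7.01, 7.71 and 6.80 FPKM in total RNA at T0. In dcp5-1, T15 was above T0 in polysomal RNA and below it in total RNA, while in Col-0 T15 was above T0 in total RNA alone and the polysomal groups overlapped. The difference was 0.75 ± 0.15, adjusted p = 0.0048. LAC11 and IRX12 encode laccases, which oxidize lignin precursors. LAC11 (AT5G03260) had 43.9, 43.2 and 42.4 FPKM in polysomal and 21.0, 22.2 and 25.4 FPKM in total RNA at T15, and 33.1, 33.7 and 29.9 FPKM in polysomal and 11.2, 10.97 and 10.12 FPKM in total RNA at T0 in dcp5-1, against 17.1, 18.0 and 20.0 FPKM in polysomal and 15.2, 14.1 and 15.1 FPKM in total RNA at T15, and 19.2, 16.6 and 18.5 FPKM in polysomal and 4.86, 5.94 and 6.25 FPKM in total RNA at T0 in Col-0. Total RNA was higher at T15 without overlap in both genotypes, and polysomal RNA was so in dcp5-1 alone. Association of LAC11 fell by 0.61 in dcp5-1 and by 1.23 in Col-0, with a difference of 0.63 ± 0.16, adjusted p = 0.023. Association of IRX12 (AT2G38080) rose by 0.30 in dcp5-1 and fell by 0.31 in Col-0, with a difference of 0.61 ± 0.15, adjusted p = 0.019. RWP1 (AT5G41040), an acyltransferase that adds ferulate in suberin synthesis, lost 0.30 in dcp5-1 and 0.96 in Col-0, with a difference of 0.67 ± 0.14, adjusted p = 0.0072. ABCG6, a transporter needed for suberin, had a difference of 0.62 ± 0.17, adjusted p = 0.033, which missed the threshold in 10 of the fits without 1 library.

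GLT1 (AT5G53460, chromosome 5, 21700187 to 21710296 in TAIR10.1), the NADH-dependent glutamate synthase of nitrogen assimilation, has the longest coding region of the named genes at 6627 nt. In dcp5-1, GLT1 had 19.3, 19.2 and 19.5 FPKM in polysomal and 10.7, 10.3 and 10.2 FPKM in total RNA at T15, and 15.1, 16.5 and 17.1 FPKM in polysomal and 9.99, 10.3 and 9.77 FPKM in total RNA at T0. In Col-0, GLT1 had 22.6, 19.7 and 19.5 FPKM in polysomal and 17.2, 17.42 and 18.6 FPKM in total RNA at T15, and 21.8, 19.9 and 19.9 FPKM in polysomal and 12.7, 11.3 and 12.6 FPKM in total RNA at T0. Polysomal RNA was higher at T15 without overlap in dcp5-1 and overlapped in Col-0, while total RNA overlapped in dcp5-1 and was higher at T15 in Col-0. The difference was 0.70 ± 0.12, adjusted p = 0.0022. HSP90.1 (AT5G52640, chromosome 5, 21352557 to 21355147 in TAIR10.1), a heat-inducible cytosolic chaperone, had 37.1, 42.1 and 39.1 FPKM in polysomal and 17.9, 15.8 and 16.4 FPKM in total RNA at T15, and 55.0, 64.4 and 62.3 FPKM in polysomal and 36.1, 31.8 and 36.1 FPKM in total RNA at T0 in dcp5-1, against 5.00, 4.33 and 5.04 FPKM in polysomal and 2.52, 2.92 and 2.73 FPKM in total RNA at T15, and 8.69, 8.10 and 7.26 FPKM in polysomal and 3.33, 4.17 and 4.09 FPKM in total RNA at T0 in Col-0. Every dcp5-1 library held more of it than any Col-0 library, and T15 lay below T0 in each fraction of each genotype. Its difference was 0.66 ± 0.17, adjusted p = 0.022, from a called gain of 0.40 in dcp5-1 and a change of -0.25 in Col-0 that missed the threshold.

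The other named higher genes were ENT1, a nucleoside transporter (0.72 ± 0.21, adjusted p = 0.048), FXG1, a fucosidase (0.71 ± 0.17, adjusted p = 0.017), WIN2, a protein phosphatase bound by a bacterial effector (0.64 ± 0.17, adjusted p = 0.029), ECIP1, a partner of the ethylene protein EIN2 (0.61 ± 0.12, adjusted p = 0.0059), EOL1, a relative of the ACC synthase regulator ETO1 (0.58 ± 0.13, adjusted p = 0.012), and XBAT33, an ankyrin-repeat RING protein (0.58 ± 0.13, adjusted p = 0.0095). ENT1 missed the threshold in 17 fits without 1 library and WIN2 in 6. Of the 14, 11 had a called difference of responses in total RNA and 4 in polysomal RNA. The 14 were chosen by their difference in association, so calls in either fraction are partly built in. In length-adjusted values, 7 of the 14 were still called, and LAC11 and IRX12 were not among them. ENT1, FXG1, GLT1, RWP1, WIN2, LAC11 and ECIP1 overlap another annotated gene, and since the counting is not stated to use strand, reads of the pairs cannot be told apart.

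Among the 14 named genes with the lowest differences, FHL came first. FHL (AT5G02200, chromosome 5, 437365 to 439019 in TAIR10.1) brings the light receptor phytochrome A into the nucleus. In dcp5-1, FHL had 4.71, 5.32 and 4.73 FPKM in polysomal and 20.0, 23.6 and 25.4 FPKM in total RNA at T15, and 6.32, 5.20 and 5.55 FPKM in polysomal and 16.4, 18.7 and 16.3 FPKM in total RNA at T0. In Col-0, FHL had 7.79, 6.98 and 6.99 FPKM in polysomal and 15.7, 19.0 and 17.7 FPKM in total RNA at T15, and 5.29, 4.05 and 3.63 FPKM in polysomal and 22.8, 15.3 and 18.5 FPKM in total RNA at T0. Total RNA was higher at T15 in dcp5-1 without overlap and overlapped in Col-0, while polysomal RNA overlapped in dcp5-1 and was higher at T15 in Col-0. Association fell by 0.57 in dcp5-1 and rose by 0.74 in Col-0, and the difference was -1.31 ± 0.24, adjusted p = 0.0039.

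UPI (AT5G43580, chromosome 5, 17507801 to 17508752 in TAIR10.1) encodes a serine protease inhibitor of the potato inhibitor type. In dcp5-1, UPI had 67.3, 64.3 and 69.4 FPKM in polysomal and 253, 260.3 and 271 FPKM in total RNA at T15, and 138, 125 and 110.3 FPKM in polysomal and 491, 461 and 554 FPKM in total RNA at T0. In Col-0, UPI had 93.0, 105 and 94.9 FPKM in polysomal and 216, 241 and 217 FPKM in total RNA at T15, and 119, 122 and 128 FPKM in polysomal and 631, 723 and 685 FPKM in total RNA at T0. All 4 pairs of groups were lower at T15 without overlap, and in Col-0 total RNA dropped further than polysomal RNA. Association changed by 0.06 in dcp5-1, short of the threshold, and rose by 1.26 in Col-0, with a difference of -1.20 ± 0.15, adjusted p = 2.1e-04. MT1C (AT1G07610), a metallothionein that binds metal ions, had 314, 291 and 288 FPKM in polysomal and 738, 714 and 809 FPKM in total RNA at T15, and 508, 448 and 420.3 FPKM in polysomal and 1186, 1209 and 1257 FPKM in total RNA at T0 in dcp5-1, against 177, 211 and 207 FPKM in polysomal and 372, 357 and 350.0 FPKM in total RNA at T15, and 359, 387 and 406 FPKM in polysomal and 1471, 1800.3 and 1607 FPKM in total RNA at T0 in Col-0. Total RNA at T15 of Col-0 was below every other group of total RNA. The difference was -1.14 ± 0.16, adjusted p = 4.5e-04, and close copies of this gene leave the single copy uncertain.

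AGP14 (AT5G56540, coding sequence above) encodes the backbone of an arabinogalactan peptide of the cell surface. In dcp5-1, AGP14 had 122, 121 and 106 FPKM in polysomal and 88.2, 88.1 and 102 FPKM in total RNA at T15, and 116, 123 and 108 FPKM in polysomal and 222, 228 and 232 FPKM in total RNA at T0. In Col-0, AGP14 had 71.6, 73.6 and 90.0 FPKM in polysomal and 32.9, 36.4 and 30.0 FPKM in total RNA at T15, and 110.0, 92.2 and 104 FPKM in polysomal and 200.3, 276 and 235 FPKM in total RNA at T0. Total RNA was lower at T15 without overlap in both genotypes and lowest in Col-0 at T15, whereas polysomal RNA overlapped between times in dcp5-1. Association rose by 1.29 in dcp5-1 and by 2.42 in Col-0, with a difference of -1.12 ± 0.21, adjusted p = 0.0039. SMAP1 (AT4G13520), a small acidic protein of the response to a synthetic auxin, had 143, 146 and 137 FPKM in polysomal and 255, 267 and 312 FPKM in total RNA at T15, and 169, 151 and 137 FPKM in polysomal and 471, 463 and 474 FPKM in total RNA at T0 in dcp5-1, against 87.2, 101 and 102 FPKM in polysomal and 135, 148 and 146 FPKM in total RNA at T15, and 103, 106 and 113 FPKM in polysomal and 478, 583 and 512 FPKM in total RNA at T0 in Col-0. Polysomal RNA of SMAP1 overlapped between times in dcp5-1 and total RNA was lower at T15 in both genotypes. Its association rose by 0.66 in dcp5-1 and by 1.71 in Col-0, with a difference of -1.05 ± 0.17, adjusted p = 0.0012.

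**Figure D4:**
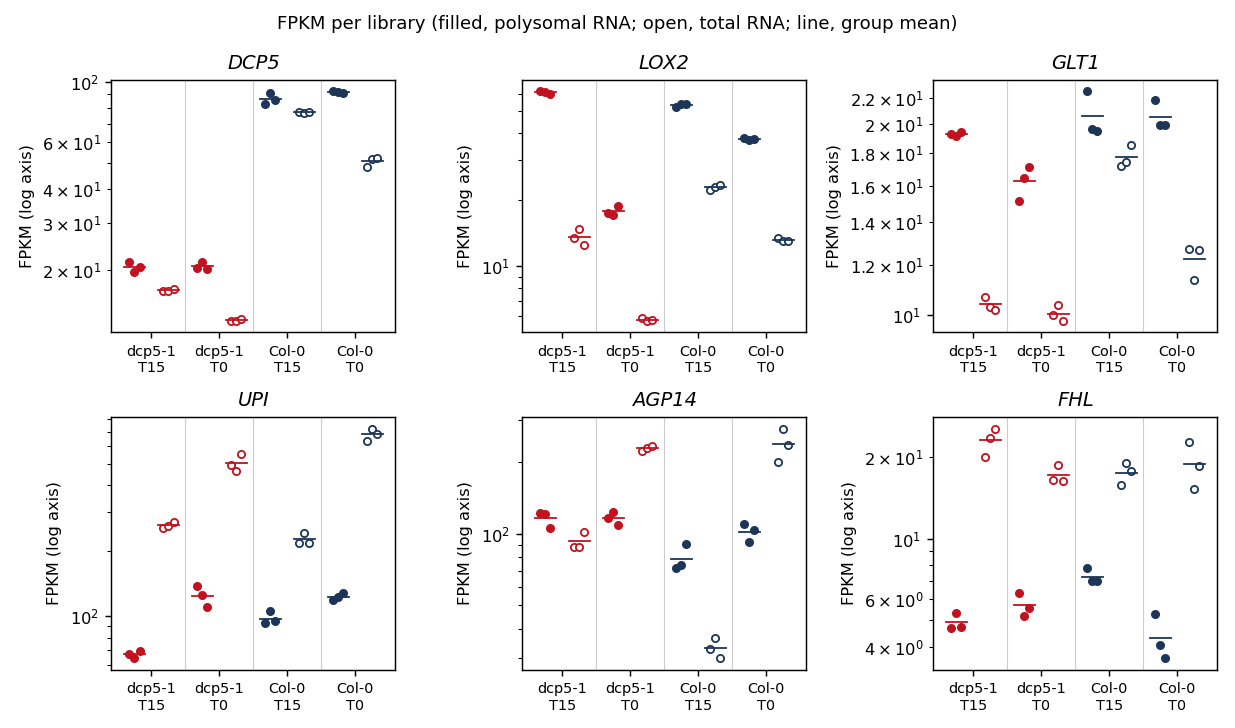
FPKM of 6 named genes in each library on log axes, with polysomal RNA as filled and total RNA as open points and a line at each group mean. For LOX2 the gap between polysomal and total RNA widened at T15 in dcp5-1, and for UPI and AGP14 it narrowed or turned in Col-0 as total RNA dropped to 216 to 241 and 30.0 to 36.4 FPKM.

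ATBET12 (AT4G14455), a SNARE of the Golgi, had the smallest p of the named lower genes. It had 19.7, 18.5 and 17.7 FPKM in polysomal and 24.6, 23.2 and 25.03 FPKM in total RNA at T15, and 21.7, 21.2 and 20.8 FPKM in polysomal and 45.0, 42.7 and 42.5 FPKM in total RNA at T0 in dcp5-1, against 17.2, 18.3 and 18.1 FPKM in polysomal and 17.7, 19.7 and 19.0 FPKM in total RNA at T15, and 14.4, 12.9 and 12.97 FPKM in polysomal and 48.2, 45.1 and 48.3 FPKM in total RNA at T0 in Col-0. Polysomal RNA was lower at T15 in dcp5-1 and higher at T15 in Col-0, both without overlap. The difference was -1.03 ± 0.11, adjusted p = 2.2e-05. PROPEP4, the precursor of a defence peptide, had a difference of -0.97 ± 0.15, adjusted p = 8.6e-04. SAUR20 (AT5G18020), of a family of small auxin-induced proteins of cell expansion, was lower at T15 in each fraction of each genotype. Its association fell by 0.49 in dcp5-1 and rose by 0.46 in Col-0, with a difference of -0.95 ± 0.23, adjusted p = 0.019.

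Of the other named lower genes, UPB1, a bHLH factor of reactive oxygen balance in roots, had -1.24 ± 0.27, adjusted p = 0.0086. CPL3, a small MYB protein of epidermal patterning, had -1.13 ± 0.28, adjusted p = 0.02. CML23, a calmodulin-like calcium sensor, had -1.11 ± 0.23, adjusted p = 0.0073. The trypsin inhibitor TI2 had -1.06 ± 0.23, adjusted p = 0.008, the SCR-like protein SCRL7, which overlaps another gene, had -1.01 ± 0.22, adjusted p = 0.011, and the defensin-like PDF1.4 had -1.11 ± 0.33, adjusted p = 0.048. PDF1.4 missed the threshold in 17 fits without 1 library and with nuclear scaling. Of the 14, 13 had a called difference of responses in total RNA and 4 in polysomal RNA, and 8 were still called in length-adjusted values. As with the higher genes, the choice by difference in association partly builds in the calls by fraction.

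Lists of functional groups were read against the background of 1.95% higher and 4.3% lower calls and the median of -0.03 over all genes. With nuclear scaling, where the median of all genes was 0.07, all 15 medians of nuclear lists lay higher too, so that medians near 0 have no fixed sign. The background of length-adjusted list values was 140 higher and 548 lower of 20407 genes, with a median of -0.055. Of 11 arabinogalactan peptide genes tested, 6 were lower and none higher, with a median of -0.62. AGP15, AGP20 and AGP14 were the called members of smallest p, with AGP15 at -0.59 ± 0.12, adjusted p = 0.0057 and AGP20 at -0.66 ± 0.14, adjusted p = 0.008. Association of the 11 genes rose by a median of 1.22 in dcp5-1 and 1.51 in Col-0. Their median transcript had 733 nt, and in length-adjusted values 2 remained lower and the median was -0.29.

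Among 34 nuclear photosynthesis genes, 6 were lower, none was higher, and 33 had a negative value, with a median of -0.28. GAPA and GAPB, the subunits of the plastid glyceraldehyde-3-phosphate dehydrogenase of the Calvin cycle, had -0.70 ± 0.16, adjusted p = 0.01 and -0.66 ± 0.14, adjusted p = 0.0066. In dcp5-1, GAPB (AT1G42970) had 1584, 1605 and 1573 FPKM in polysomal and 845, 885 and 917 FPKM in total RNA at T15, and 1182, 1202 and 1199.9 FPKM in polysomal and 464, 482 and 460.4 FPKM in total RNA at T0. In Col-0, GAPB had 1926, 2021 and 2099 FPKM in polysomal and 925, 872 and 858 FPKM in total RNA at T15, and 1882, 1882 and 1868 FPKM in polysomal and 821, 1081 and 875 FPKM in total RNA at T0. Total RNA of GAPB was higher at T15 in dcp5-1 without overlap and overlapped in Col-0. CAB2 (AT1G29920), an antenna protein of photosystem II that shares reads with close copies, had -0.61 ± 0.13, adjusted p = 0.0077. The response in total RNA was higher in dcp5-1 for this list by a median of 0.51, against 0.23 in polysomal RNA. In length-adjusted values, 9 of the 34 genes were lower and the median was -0.28. GAPA overlaps another annotated gene.

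Of 44 genes of cytosolic ribosomal proteins, association was called higher at T15 in 28 and lower in 2 in dcp5-1, and higher in 38 and lower in 2 in Col-0, with median changes of 0.35 in dcp5-1 and 0.60 in Col-0. Over all genes tested, 12.3% were called higher and 14% lower in dcp5-1, and 22.8% higher and 21.5% lower in Col-0. These calls are relative to the scaling. For the difference, 7 of the 44 genes were lower and none higher, with a median of -0.30. The ribosomal proteins S24e (AT5G28060) and L38e (AT2G43460) had -0.51 ± 0.11, adjusted p = 0.01 and -0.60 ± 0.15, adjusted p = 0.02. In dcp5-1, the S24e gene had 339, 346 and 351 FPKM in polysomal and 227, 234 and 240.2 FPKM in total RNA at T15, and 408, 382 and 392 FPKM in polysomal and 470.4, 479.8 and 449.5 FPKM in total RNA at T0. In Col-0, the S24e gene had 293, 306 and 326 FPKM in polysomal and 170.2, 165 and 165 FPKM in total RNA at T15, and 343, 326 and 347 FPKM in polysomal and 440.3, 507 and 423 FPKM in total RNA at T0. Total RNA was lower at T15 without overlap in both genotypes, and polysomal RNA was so in dcp5-1 alone. In length-adjusted values, 3 of the 44 were lower, while S24e was -0.26 (adjusted p = 0.14) and L38e -0.27 (adjusted p = 0.18), and single members share reads with close copies.

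Of 20 translation factors, EIF3C, a subunit of initiation factor 3, was higher (0.32 ± 0.07, adjusted p = 0.013) and EIF4E, the cap-binding protein, was lower (-0.35 ± 0.10, adjusted p = 0.039), with a list median of 0.00. Neither was called in length-adjusted values, and EIF4E missed the threshold in 16 fits without 1 library and with nuclear scaling. Of 27 decapping and decay genes, 2 were higher and none lower, with a median of 0.15. These were DCP5 and the ribonuclease gene AT1G77680 (0.39 ± 0.11, adjusted p = 0.036), of the RNase II/R family of exonucleases, which missed the threshold in 17 fits without 1 library. Of 16 stress granule RNA-binding proteins, Tudor1, a staphylococcal-type nuclease with a Tudor domain, was higher (0.36 ± 0.10, adjusted p = 0.034), missing the threshold in 13 fits and with nuclear scaling. In length-adjusted values, none of the 27 decay genes was called and the median was -0.02. For the stress granule list, length-adjusted values gave 2 lower and no higher genes with a median of -0.04, against 0.08 unadjusted, and Tudor1 was 0.14 (adjusted p = 0.44). Over all genes the length-adjusted median was -0.055, below the length-adjusted medians of both lists.

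Of 28 genes of abscisic acid (ABA) and osmotic stress, the protease subunit gene ERD1 was higher (0.37 ± 0.10, adjusted p = 0.028) and the ABA receptor gene PYR1 (-0.67 ± 0.14, adjusted p = 0.0061) and the proline dehydrogenase gene ERD5 (-0.26 ± 0.07, adjusted p = 0.039) were lower, with a list median of -0.14. In length-adjusted values 4 of the 28 were lower and none higher, and ERD1 was 0.15 (adjusted p = 0.47). In dcp5-1, PYR1 (AT4G17870) had 74.4, 77.3 and 72.3 FPKM in polysomal and 127, 138 and 134 FPKM in total RNA at T15, and 74.99, 72.0 and 70.4 FPKM in polysomal and 202, 206 and 205 FPKM in total RNA at T0. In Col-0, PYR1 had 85.7, 86.9 and 90.4 FPKM in polysomal and 107, 100.2 and 103 FPKM in total RNA at T15, and 88.6, 83.9 and 82.6 FPKM in polysomal and 225, 299 and 241 FPKM in total RNA at T0. Polysomal RNA of PYR1 overlapped between times in both genotypes, and total RNA was lower at T15 in both, further so in Col-0. Of 32 rapid stress-inducible regulators, the touch-induced calcium sensor TCH2 (-0.43 ± 0.09, adjusted p = 0.0084) and the jasmonate repressor JAZ8 (-0.74 ± 0.20, adjusted p = 0.034) were lower, and the list median was -0.21. Length-adjusted, JAZ8 was -0.29 (adjusted p = 0.48) and 1 of the 32 was lower. Of 22 auxin genes, 3 were lower, namely the repressors SHY2 (-0.44 ± 0.09, adjusted p = 0.0057) and ATAUX2-11 (-0.43 ± 0.09, adjusted p = 0.0091) and the auxin carrier PIN3 (-0.32 ± 0.09, adjusted p = 0.035), of which PIN3 alone was called in length-adjusted values. None of these 3 was called with nuclear scaling, nor were JAZ8 and ERD5. JAZ8 missed the threshold in 11 fits without 1 library, PIN3 in 12, ERD5 in 14 and ERD1 in 5. TCH2 and SHY2 each overlap another annotated gene. Of 13 genes of sodium transport and osmosensing, the plasma membrane proton pump HA2 was lower (-0.33 ± 0.10, adjusted p = 0.043), which missed the threshold in 19 fits without 1 library and with nuclear scaling.

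Among 21 genes of glucosinolates, myrosinases and ER bodies, 2 were higher and 2 lower, with a median of -0.04. CYP79F1, which starts the synthesis of aliphatic glucosinolates from methionine, was higher (0.51 ± 0.13, adjusted p = 0.025). In dcp5-1, CYP79F1 (AT1G16410) had 20.9, 22.6 and 19.5 FPKM in polysomal and 10.8, 10.6 and 9.87 FPKM in total RNA at T15, and 6.04, 6.23 and 5.72 FPKM in polysomal and 2.94, 2.62 and 2.33 FPKM in total RNA at T0. In Col-0, CYP79F1 had 8.92, 8.604 and 8.66 FPKM in polysomal and 4.90, 5.12 and 5.24 FPKM in total RNA at T15, and 9.34, 10.3 and 10.3 FPKM in polysomal and 3.91, 3.65 and 3.81 FPKM in total RNA at T0. It was higher at T15 in both fractions of dcp5-1 without overlap, and in Col-0 it was higher in total and lower in polysomal RNA. CYP79F1 missed the threshold in 2 fits without 1 library and in length-adjusted values, at 0.36 (adjusted p = 0.11). GLL22, a lipase-like protein, was higher (0.54 ± 0.13, adjusted p = 0.014), while the beta-glucosidase PYK10 (-0.40 ± 0.10, adjusted p = 0.019) and the ER body protein NAI2 (-0.39 ± 0.11, adjusted p = 0.034) were lower. NAI2 missed the threshold in 11 fits without 1 library and with nuclear scaling. In dcp5-1, PYK10 (AT3G09260) had 3804, 3896 and 3837 FPKM in polysomal and 3288, 3307 and 3251 FPKM in total RNA at T15, and 3836, 3773 and 3916 FPKM in polysomal and 2130.2, 2193 and 2186 FPKM in total RNA at T0. In Col-0, PYK10 had 1905, 2012 and 2044 FPKM in polysomal and 1607, 1513 and 1598 FPKM in total RNA at T15, and 2517, 2462 and 2491 FPKM in polysomal and 1622, 1886 and 1679.7 FPKM in total RNA at T0. Every dcp5-1 library held more PYK10 than the matching Col-0 libraries, and PYK10 overlaps another annotated gene.

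Of 18 heat shock and unfolded protein genes, HSP90.1 alone was called, with a list median of -0.16. Length-adjusted, HSP90.1 was 0.55 (adjusted p = 0.065, limma) and 0 genes of the list were called, while 2 were higher with nuclear scaling. No call was made among 18 aquaporin genes (median -0.07, and 0.04 with nuclear scaling), 9 root-expressed genes (median 0.04) or 9 mitochondrion-encoded genes (median -0.40). Of 7 seed storage genes, CRA1 was higher and OLEO2 lower, with a median of -0.43. Of 66 chloroplast-encoded genes, 2 were higher and 1 lower, with a median of 0.01. The genes with calls were ATCG01300 (1.79 ± 0.45, adjusted p = 0.027), ATCG00830 (0.57 ± 0.16, adjusted p = 0.037) and ATCG01130 (-0.69 ± 0.14, adjusted p = 0.0069). ATCG00830 missed the threshold in 14 fits without 1 library and ATCG01300 in 2.

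**Figure D5:**
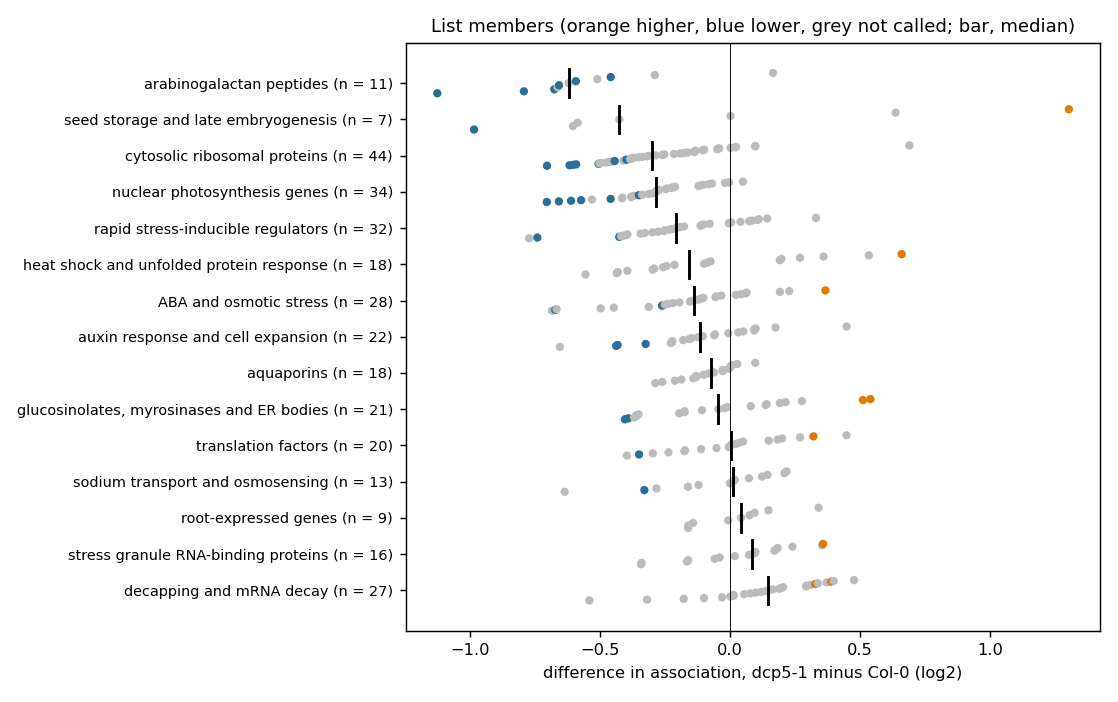
Difference in association in dcp5-1 minus Col-0 as log2 for each tested member of the 15 lists of nuclear genes, with a bar at each list median. Arabinogalactan peptides have the lowest median at -0.62 and decapping and decay genes the highest at 0.15, and grey members were not called for this difference.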

How the data were processed

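RNA was measured in 24 libraries, 3 for each combination of 2 genotypes, 2 times and 2 fractions, as FPKM values that the authors deposited in 1 table. The submitters' processing notes name Bowtie and TAIR10. The sources used here do not give the counting tool, use of strand or scaling. That the deposited values are FPKM was inferred from low values of pseudogenes and of models without annotated untranslated parts, from 500 nt on. In each library 95.0% to 96.8% of these 326 to 507 values were whole fragments to within 0.1 once 245 to 275 nt were taken off the transcript length. The length taken off and the number of fragments were those that made this share largest, so the share is no separate test. 0 sample columns were left unused, and 1 line without values was left out. IDs were matched to TAIR10.1 for 99.2% of the genes.

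limma 3.58.1 in R 4.3.3 (limma-trend, robust empirical Bayes) was fitted to log2(FPKM + 1) with 8 groups and 16 residual degrees of freedom, with Benjamini-Hochberg adjustment over 20964 genes. A pseudocount of 1 understates the change of low genes. The fit was tested on simulated data. Lengths, GC content and sequences came from the longest RefSeq transcript, and tables were made with Python 3.11.15, numpy 2.4.6, pandas 2.3.3 and matplotlib 3.10.9.

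Genes were named by a rule: DCP5, the 14 largest differences in each direction among called nuclear protein-coding genes with a symbol, a mean of at least 10 FPKM and a transcript of at least 300 nt, and up to 3 called members per list and direction of smallest p. Members, lists and rule were chosen with earlier results of these data known. The alternatives were a pseudocount of 0.1, no filter, a mean of at least 5 FPKM, median-of-ratios scaling, library totals over nuclear genes alone (nuclear scaling), limma without trend and robust fit, array weights, length-adjusted values (a spline on length of 6 and on GC content of 4 degrees of freedom taken out of each library), a replicate block and each library left out. Undoing the effective length and length filters of 300 nt and 500 nt were added after the data had been seen.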

Additional observations from a re-analysis of the deposited data

Results flagged for a closer look

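For 7 named genes the change of association was called with opposite signs in dcp5-1 and Col-0, and the difference itself passed the limma interaction test. The difference was 0.87 for LOX2, 0.75 for CTL2 and 0.61 for IRX12, which gained in dcp5-1 and lost in Col-0, and -1.31 for FHL and -0.95 for SAUR20, which lost in dcp5-1 and gained in Col-0. With nuclear scaling the median change of association over all genes was -0.11 in dcp5-1 and -0.20 in Col-0, so that opposite signs are relative to the scaling. Length-adjusted, the differences of IRX12 (0.48, adjusted p = 0.081, limma) and SAUR20 (-0.64, adjusted p = 0.13, limma) were not called.

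CRA1 encodes a seed storage cruciferin and OLEO2 an oleosin of seed oil bodies. The difference was 1.302 for CRA1 (adjusted p = 0.0042, limma), from a change of 0.73 in dcp5-1 and -0.57 in Col-0. In dcp5-1, CRA1 had 1.998, 1.83 and 2.36 FPKM in polysomal and 0.857, 0.721 and 0.621 FPKM in total RNA at T15, and 0.204, 0.0432 and 0.116 FPKM in polysomal and 0.0805, 0.0780 and 0 FPKM in total RNA at T0. In Col-0, CRA1 had 1.29, 2.197 and 1.59 FPKM in polysomal and 1.09, 1.57 and 0.936 FPKM in total RNA at T15, and 2.11, 1.93 and 1.98 FPKM in polysomal and 0.763, 0.700 and 0.512 FPKM in total RNA at T0. The level was low, with a mean of 1.07 FPKM over the 24 libraries, and rested on dcp5-1 libraries near 0 at T0. The difference was -0.98 for OLEO2 (adjusted p = 0.012, limma), from -0.55 in dcp5-1 and 0.43 in Col-0. OLEO2 was higher at T15 in both fractions of dcp5-1 and lower at T15 in both fractions of Col-0, without overlap, and it overlaps another annotated gene.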

How the results depend on the processing

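Of the counts of 409 higher and 902 lower genes, the higher count moved by over 1.5 times to 627 with nuclear scaling, and with array weights the counts were 799 and 1651. In length-adjusted values they were 140 and 548, and the length filter of 300 nt alone gave 415 and 959, so the filter is not what lowered them. Without 1 library the counts ranged from 263 to 570 higher and from 636 to 1533 lower genes. Numbers of columns do not pair libraries: 84 same-numbered pairs had correlations from -0.169 to 0.155 with a median of -0.026, and with the number as a replicate block the counts were 357 and 854. No other setting moved a count by over 1.5 times. Undoing the effective length gave 396 and 1162, and the 500 nt filter 422 and 995. No named gene changed sign under any setting run. Of the 59 named genes, 27 missed the threshold in length-adjusted values, 10 with nuclear scaling, 6 with a pseudocount of 0.1, 6 without trend and robust fit, 4 without the filter, 3 with the block and 1 with array weights, and 0 to 13 per fit without 1 library. Of 15 list medians, 11 moved with nuclear scaling, for example photosynthesis to -0.17, ABA to -0.02, aquaporins to 0.04 and glucosinolates to 0.07, and 6 in length-adjusted values. The cause of these losses and shifts was not tested. The standard error of 0.175 limits which differences can be called.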

Other observations

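Some gene families were counted by the words of their annotated product, chosen after the values had been seen, so that the counts are a description. They are to be read beside 1.95% higher and 4.3% lower over all genes, and beside the shares at similar transcript length. Transcripts of 750 to 1249 nt had 0.458% higher and 9.66% lower calls, and those of 2500 nt or more had 5.43% and 0.746%. Length-adjusted counts of these families were not taken. Of 349 genes of any ribosomal protein, cytosolic or organellar, 50 were lower and 4 higher, with a median difference of -0.30 and a median transcript of 993 nt. Of 46 histone genes, 7 were lower and none higher (median -0.25, transcript 869 nt). Of 64 SAUR-like genes, 8 were lower and none higher (median -0.37, transcript 832 nt). Of 103 kinases with leucine-rich repeats, 4 were higher and 1 lower (median 0.16, transcript 2983 nt). Of 13 laccase genes, 2 were higher and none lower (median 0.48, transcript 2106 nt), and these 2 were LAC11 and IRX12. Neither was called in length-adjusted values, with LAC11 at 0.53 (adjusted p = 0.0501, limma) and IRX12 at 0.48 (adjusted p = 0.081, limma). Of 32 ABC transporter genes, 1 was higher and 1 lower (median 0.06).

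A few genes went against the length pattern. Of 3755 protein-coding genes with transcripts of 2500 nt or more, 28 were lower, among them HA2, PIN3 and NAI2. Their length-adjusted values were -0.55, -0.49 and -0.52, all called by limma. A trend that rises with length was taken out there, which lowers long transcripts by construction, so these calls add no separate support. HA2, PIN3 and NAI2 missed the threshold with nuclear scaling, and in 19, 12 and 11 fits without 1 library. Of the 1099 protein-coding genes in the class from 300 nt to below 750 nt, 2 were higher.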
